A study of Mus musculus with 6 samples.

Results

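The genes described here are 31 genes of mitochondrial fatty acid oxidation and targets of the PPAR nuclear receptors, taken by symbol from the 25124 gene models of the deposited count table. All 31 were found, and 28 had enough counts to be tested. They were measured by poly-A RNA sequencing in whole retinas of C57BL/6J mice aged 4 months, in 3 libraries from mice carrying the C234W substitution in Elovl2 and 3 libraries from wild-type (WT) mice. Elovl2 is an elongase that lengthens polyunsaturated chains, a step needed to make docosahexaenoic acid, which is abundant in photoreceptor membranes. The C234W libraries are named FS3A, FS3B and FS5A in the table and the WT libraries WT1A, WT2A and WT2B. What FS stands for is not given in the labels. Those 3 columns were taken as C234W by elimination, and every direction below rests on it. The labels do not give the zygosity of the C234W mice. They do not state either that each library came from its own animal, so the spread behind each p-value may be technical.

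Long-chain fatty acids enter cells through carriers such as CD36, are bound by fatty acid binding proteins, and cross into mitochondria as carnitine esters made by the CPT1 enzymes. In the matrix they are shortened by rounds of dehydrogenation, hydration, a further dehydrogenation and thiolysis, and the electrons pass to the respiratory chain through electron transfer flavoprotein and the enzyme encoded by Etfdh. The PPAR receptors bind fatty acids as ligands, pair with RXR receptors on direct repeats in DNA, and raise the transcription of many of these genes. Photoreceptors use glucose heavily, and fatty acid oxidation in the eye is best known in photoreceptors and the pigment epithelium beneath them.

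Counts in genes totalled 15804645.5 to 19298613 in the C234W libraries and 14184093 to 18710329 in the WT libraries. Elovl2 itself was measured at 82.0, 90.1 and 116 TMM-scaled CPM (counts scaled to library size) in C234W and at 142, 138 and 136 CPM in WT (log2 fold change -0.53, SE 0.165, edgeR adjusted p = 0.101). A substitution need not change a transcript's level, so this does not check the labels. The retinal identity of the samples was checked by markers. The summed level of 8 rod markers lay between 62430 and 83170 CPM in C234W and between 92450 and 145900 CPM in WT, and that of 8 bipolar cell markers between 1223 and 1289 CPM in C234W and between 895 and 1075 CPM in WT. The summed level of 8 Müller glia markers lay between 3311 and 4055 CPM in C234W and between 4406 and 5691 CPM in WT, but Glul made up most of it, and 4 of the 8 had positive and 4 negative log2 fold changes. The sums also separated for vascular endothelium (263 to 333 CPM in C234W and 192 to 214 CPM in WT), erythrocytes (60.2 to 83.0 CPM in C234W and 122 to 230 CPM in WT), skeletal muscle (2.75 to 4.33 CPM in C234W and 9.15 to 9.90 CPM in WT) and lens and ciliary body (1.28 to 2.26 CPM in C234W and 3.32 to 4.04 CPM in WT). Of the 8 skeletal muscle markers 6 averaged under 1 CPM, and of the 8 lens and ciliary body markers 7, so those sums rest on few genes. Hba-a1 and Hba-a2, Hbb-b1 and Hbb-bs, and Hbb-b2 and Hbb-bt are overlapping gene models. Their loci enter the erythrocyte sum more than once. In bulk tissue, fewer cells of a type and less RNA per cell cannot be told apart, and the part of cell composition in the values below was not tested. The WT libraries did not form an even group. Over log2 CPM, WT1A correlated at 0.969 to 0.977 with the C234W libraries and at 0.965 and 0.968 with WT2B and WT2A, while WT2A and WT2B, which share a number in their names, correlated at 0.9902, the closest of all pairs. FS3A and FS3B also share a number, but correlated at 0.9779, beside 0.9784 for FS3A and FS5A. The labels do not say whether a shared number marks a shared animal. WT2A and WT2B may therefore be related libraries, and so may FS3A and FS3B. A comparison without WT1A then rests on WT2A and WT2B alone as WT, and one without FS5A on FS3A and FS3B alone as C234W. The 8 pigment epithelium markers summed to 106 to 157 CPM in the C234W libraries and to 732, 173 and 73.5 CPM in WT1A, WT2A and WT2B. Most of the WT1A sum was Ttr at 327 CPM and Rgr at 287 CPM. WT1A was the highest library for 6 of the 8, while Pmel was highest in FS5A and Best1 in WT1A was below all C234W libraries. Of these markers 0 were at 0 in all libraries and 2 averaged under 1 CPM.

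With all 6 libraries, 0 of the 28 tested fatty acid oxidation genes and PPAR targets rose and 0 fell in C234W. The threshold was an adjusted p under 0.05 in edgeR (quasi-likelihood, Benjamini-Hochberg over 14685 genes), which 1.46% of all genes passed, 0.184% as higher and 1.28% as lower. DESeq2 and limma-voom also called 0 members, where they called 11.9% and 1.63% of all genes. At an unadjusted p under 0.05, edgeR gave 5 members, with Cpt1c higher and Cpt1a, Slc25a20, Eci2 and Plin2 lower in C234W, where 25.4% of all genes were under that value, 11.9% as higher and 13.5% as lower. The groups did not overlap for 5 of the 28 tested members, namely Ppargc1a and Cpt1c above and Cpt1a, Slc25a20 and Eci2 below, where 29.1% of all genes had groups that did not overlap, 12.6% above and 16.4% below. As shares of the 28, the counts of 5 are below both shares of all genes.

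The sizes of the differences were small for most members. The median log2 fold change was -0.14 over the 28 tested members and 0.02 over all genes tested. Of the members 10 were on the higher side and 18 on the lower, and of all genes 7633 and 7052. Log2 fold changes moved with transcript length in these libraries, with a median of -0.34 for genes up to 1671 bases and 0.28 for genes of 4985 bases or more. For genes of 1672 to 2554 bases the median log2 fold change was -0.10, and the members' median length was 2111.5 bases. With the length trend of each library removed, the medians were -0.09 for the members and -0.05 for all genes, and 2 members (Cpt1a and Cpt1c) had an unadjusted p under 0.05, where 20.5% of all genes did. For 18 of the 28 members the 95% interval of the fold change lay within 2-fold in either direction. The same held for 8384 of the 14685 genes tested. For the other 10 members the interval reached beyond 2-fold, and those differences were not determined at this depth and number of libraries.

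**Figure D1:**
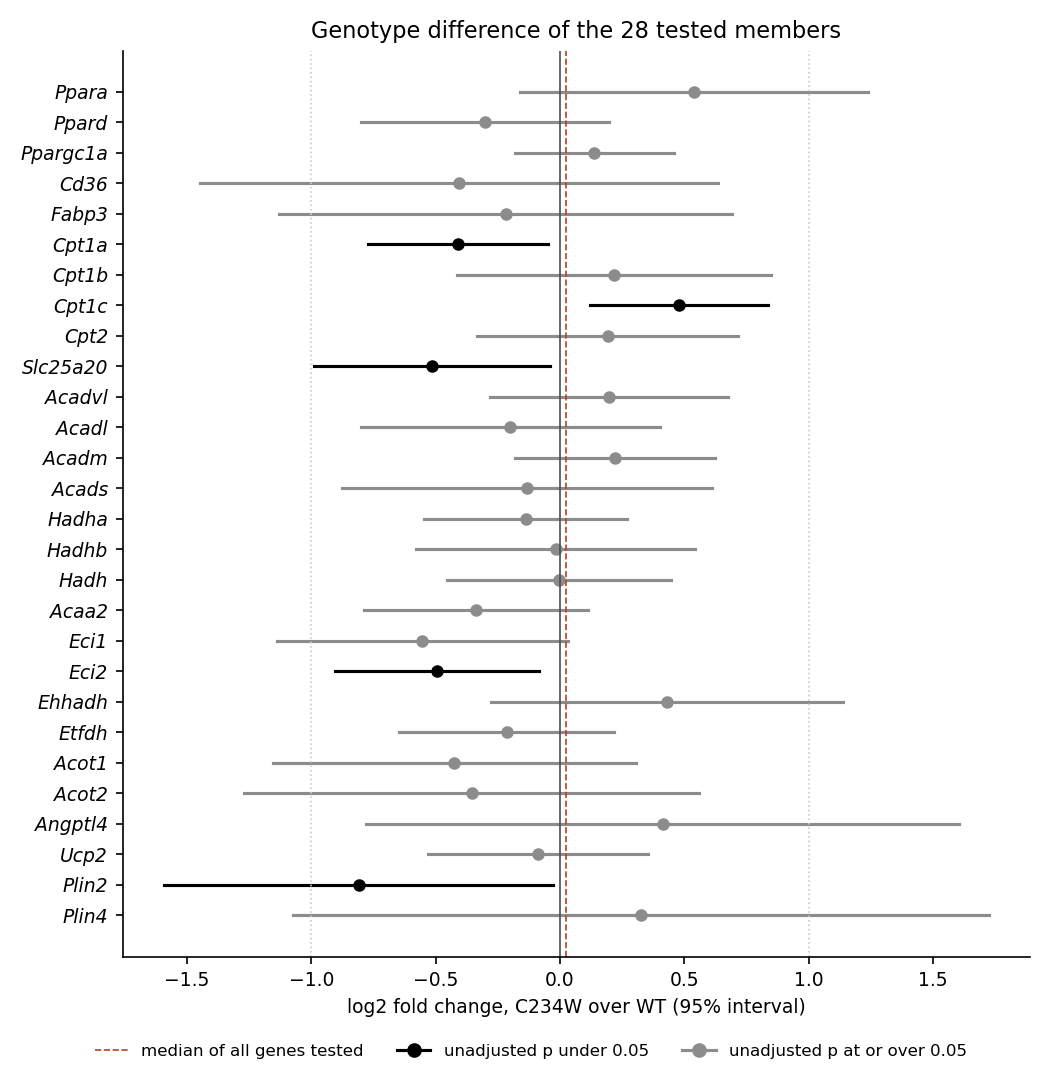
Log2 fold changes of the 28 tested members, C234W over WT, with their 95% intervals from the edgeR fit; the dashed line is the median of all genes tested and dotted lines mark a 2-fold change. Black marks the 5 members with an unadjusted p under 0.05, of which Cpt1c is higher and Cpt1a, Slc25a20, Eci2 and Plin2 are lower in C234W, and no member passed after adjustment.

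Levels can be compared between genes only per length, as RPKM (CPM per kilobase of transcript). By the mean of all 6 libraries Cpt1a was the highest member on that scale, at 58.9 ± 8.49 RPKM in C234W and 78.4 ± 3.69 RPKM in WT (SD, n = 3 each). Acadm and Acadvl, the medium-chain and very long-chain acyl-CoA dehydrogenases, followed at 68.6 ± 7.45 and 65.1 ± 15.2 RPKM in C234W and at 58.9 ± 11.4 and 56.8 ± 9.54 RPKM in WT (SD, n = 3 each). Within C234W, Acadm and Acadvl had higher means than Cpt1a. At the other end, Pparg, Plin5 and Pdk4 averaged 0.102, 0.0708 and 0.103 RPKM in C234W and 0.0102, 0.0718 and 0.101 RPKM in WT, and were too low to test.

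**Figure D2:**
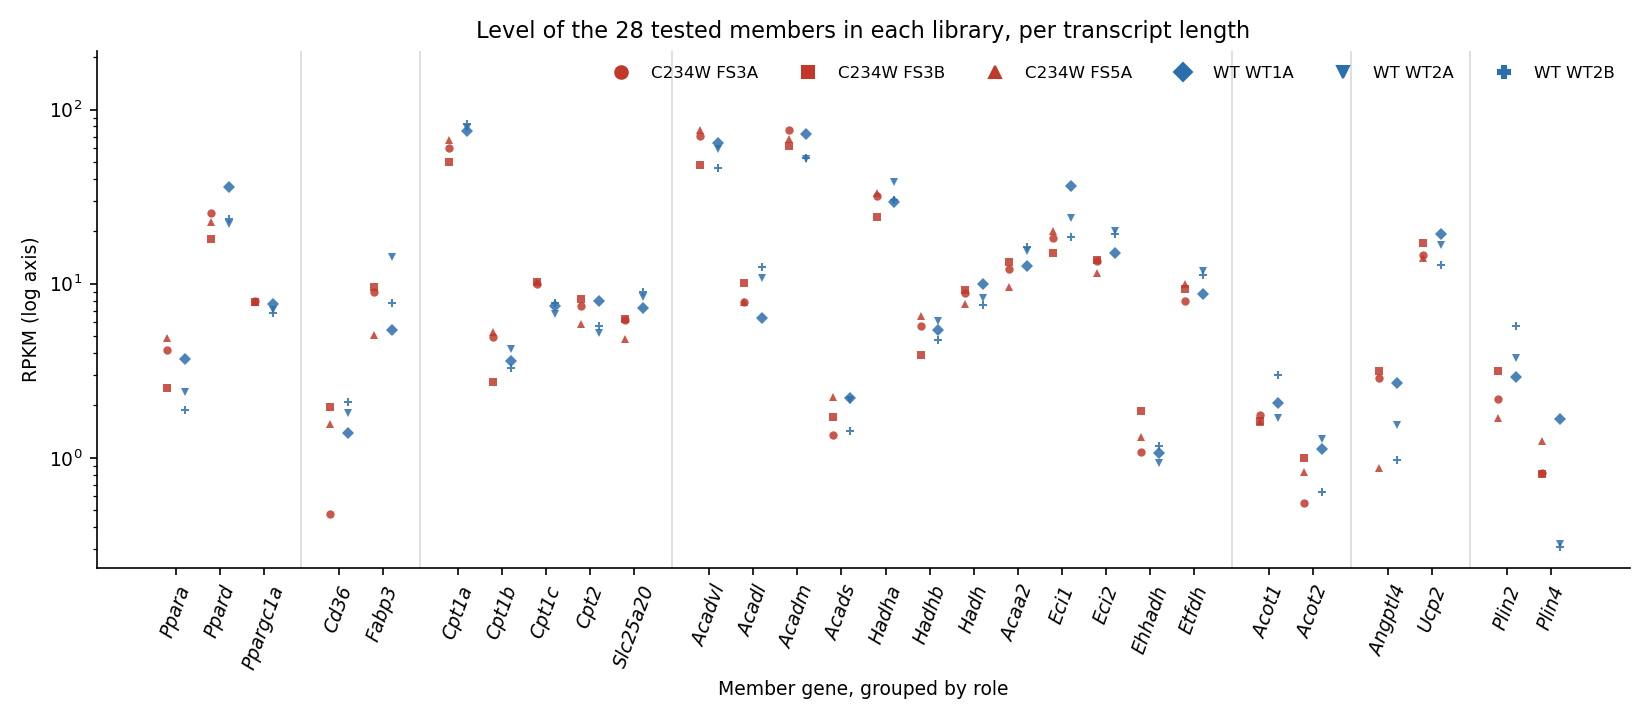
Level of each of the 28 tested members in each library in RPKM on a log axis, with C234W libraries in red at the left and WT libraries in blue at the right of each gene, grouped by role. Cpt1a, Acadm and Acadvl are the highest by the mean of 6 libraries, and the genotypes overlap for 23 of the 28 genes.

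Among the receptors, Ppard was the most abundant per length and Pparg the least. Ppard, the widely expressed receptor, had 81.3, 58.0 and 72.9 CPM in FS3A, FS3B and FS5A and 115, 70.7 and 75.6 CPM in WT1A, WT2A and WT2B (log2 fold change -0.30, SE 0.221, adjusted p = 0.412). The highest value was that of WT1A, and the other 5 libraries were interleaved. Ppara, the receptor best known for driving fatty acid oxidation in liver, had 30.1, 18.1 and 35.2 CPM in C234W and 26.6, 17.1 and 13.6 CPM in WT (log2 fold change 0.54, SE 0.309, adjusted p = 0.299). FS3A and FS5A were the highest libraries, and FS3B lay between WT1A and WT2A. Without WT1A the Ppara log2 fold change was 0.86 (adjusted p = 0.0785), and with the length trend removed it was 0.25 (adjusted p = 0.665). The Ppara transcript counted was long, at 7197 bases. Pparg, the receptor of adipocytes, had 1, 5 and 4 counts in C234W and 0, 1 and 0 counts in WT. The ratio of scaled counts was 8.47 with a 95% exact interval from 1.21 to 368, which covers counting error only, and with no filter on low counts its edgeR adjusted p was 0.269.

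Ppargc1a, the coactivator PGC-1 alpha that drives mitochondrial genes with the PPARs, was among the steadiest members. It had 51.2, 50.4 and 50.7 CPM in C234W and 49.2, 45.5 and 43.7 CPM in WT. Every C234W library lay above every WT library, but by little (log2 fold change 0.14, SE 0.141, adjusted p = 0.566). The 95% interval ran from -0.18 to 0.46, and the sign turned to -0.13 with the length trend removed.

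Uptake and binding genes were low and variable. Cd36, a membrane fatty acid carrier, had 1.64, 6.69 and 5.37 CPM in C234W and 4.78, 6.19 and 7.21 CPM in WT. FS3A was lowest, and the other 5 libraries overlapped (log2 fold change -0.41, SE 0.46, adjusted p = 0.608). The log2 fold change without FS3A was -0.00. Fabp3, the heart-type fatty acid binding protein, had 6.02, 6.45 and 3.41 CPM in C234W and 3.65, 9.58 and 5.22 CPM in WT, with overlap throughout (log2 fold change -0.22, SE 0.402, adjusted p = 0.768). Of 50-base windows of the Fabp3 transcript, 37.3% also occur in other GENCODE transcripts, mainly the pseudogene Fabp3-ps1, so its level is uncertain.

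Of the 5 carnitine shuttle genes, 3 had groups that did not overlap, where 29.1% of all genes did, and whether the shuttle differs from other genes was not tested. Cpt1c lay above and Cpt1a and Slc25a20 lay below. Cpt1a, the liver-type enzyme that commits long-chain fatty acids to mitochondria, lies on chromosome 19 of mm10 from 3323301 to 3385733. It had 256, 214 and 286 CPM in FS3A, FS3B and FS5A and 321, 333 and 352 CPM in WT1A, WT2A and WT2B. All C234W libraries lay below all WT libraries (log2 fold change -0.41, SE 0.16, adjusted p = 0.159). Cpt1c, the neuronal family member that sits in the endoplasmic reticulum and has little catalytic activity, lies on chromosome 7 from 44959372 to 44974851. It had 27.5, 28.5 and 28.2 CPM in C234W and 20.6, 18.5 and 21.3 CPM in WT. All C234W libraries lay above all WT libraries (log2 fold change 0.48, SE 0.158, adjusted p = 0.115).

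The proportion of the 2 isoenzymes was also read within each library, a ratio chosen after the values were seen and so given with no test. Cpt1a exceeded Cpt1c per length by 6.03, 4.87 and 6.58 times in C234W and by 10.1, 11.7 and 10.7 times in WT. A ratio within a library does not depend on the scaling between libraries, and it does not tell which of the pair differed. Both genes had groups that did not overlap, in opposite directions, so the ratio had to separate the groups as well. It is therefore not further evidence of a difference. After removal of the length trend, values were -0.60 for Cpt1a (adjusted p = 0.118) and 0.42 for Cpt1c (adjusted p = 0.192). Cpt1a kept a negative and Cpt1c a positive log2 fold change under all 16 settings, with adjusted p from 0.0974 to 0.542 and from 0.0568 to 0.47. Most tested members also kept their sign under all 16, among them Ppard, Cd36, Cpt1b, Cpt2, Acot1 and Acot2, whose groups overlapped. The settings use the same libraries, so a kept sign does not set these genes apart.

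**Figure D3:**
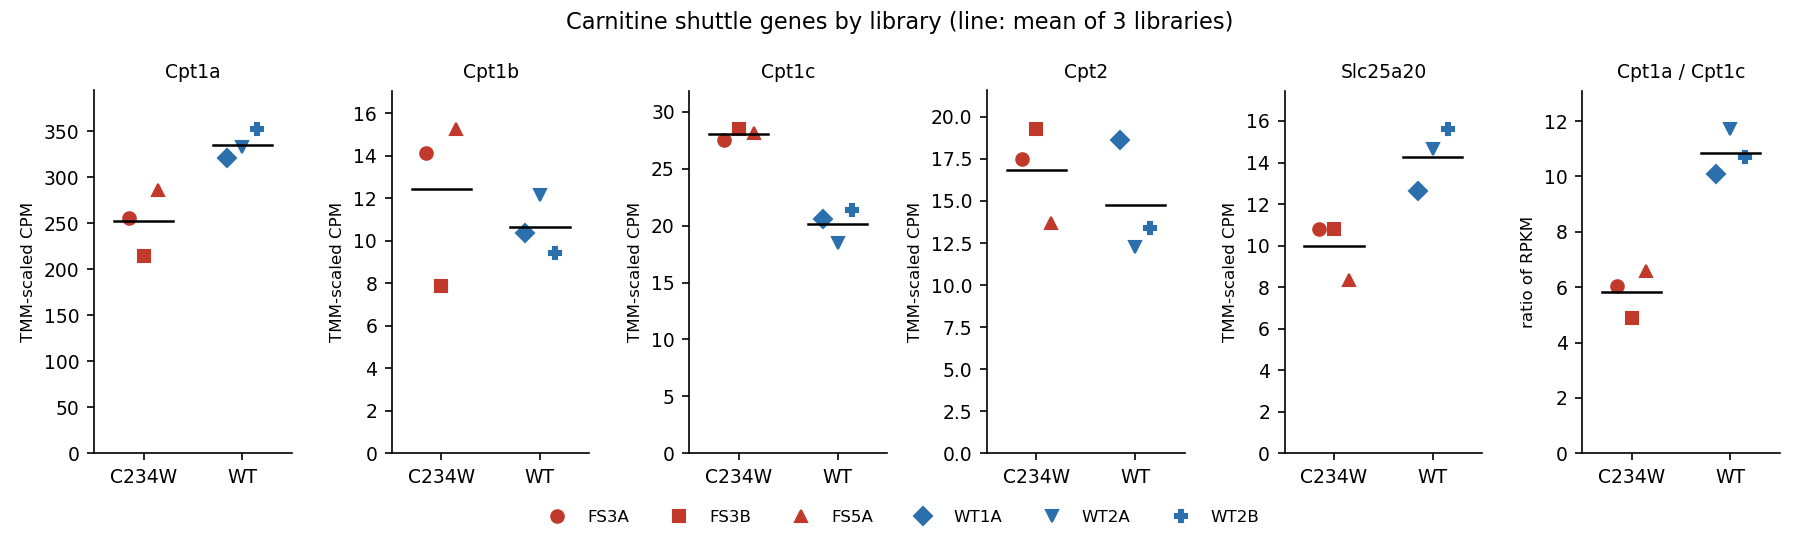
TMM-scaled CPM of the 5 carnitine shuttle genes in each library, and at the right the ratio of Cpt1a to Cpt1c in RPKM, with C234W left of WT and the mean of 3 libraries as a line. Cpt1a and Slc25a20 lie lower and Cpt1c higher in all C234W libraries, and the ratio spans 4.87 to 6.58 in C234W and 10.1 to 11.7 in WT. The separation of the ratio follows from those of Cpt1a and Cpt1c.

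The rest of the shuttle followed no single direction. Slc25a20, the carrier that exchanges acylcarnitine for carnitine across the inner membrane, had 10.8, 10.8 and 8.35 CPM in C234W and 12.6, 14.6 and 15.6 CPM in WT. The groups did not overlap (log2 fold change -0.52, SE 0.21, adjusted p = 0.172). Without the length trend the log2 fold change was -0.41 (adjusted p = 0.3). Cpt2, which reforms the acyl-CoA in the matrix, had 17.5, 19.3 and 13.7 CPM in C234W and 18.6, 12.3 and 13.4 CPM in WT, with overlap (log2 fold change 0.19, SE 0.232, adjusted p = 0.633). Cpt1b, the muscle-type enzyme, had 14.1, 7.87 and 15.2 CPM in C234W and 10.4, 12.2 and 9.42 CPM in WT (log2 fold change 0.22, SE 0.279, adjusted p = 0.655). FS3B was the lowest and FS5A the highest of the 6. Cpt1b lies within the gene model Gm44502 on the same strand, which holds 93% of its 50-base windows, so the counts of the pair cannot be separated.

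Promoter sequences were examined because the PPARs act through direct repeats of AGGTCA with 1 base between. RefSeq promoter windows on GRCm38.p6, from 250 bases before to 50 bases after a start, were matched for 28 of the 31 members, in 31 windows. For 25 of the 28 a window's start lay within 100 bases of the start of the counted transcript, and Cd36, Ppara and Ppargc1a were the exceptions. On both strands, AGGTCANAGGTCA was in 0 of the 31 windows and in 0.0396% of 32851 windows of all genes. With up to 2 mismatches it was in 3 member windows (9.68%) and in 3.86% of all windows. The single unit AGGTCA, which is part of the longer motif, was in 10 member windows (32.3%), of 8 genes, and in 16.3% of all windows. These 8 genes include Pparg with 3 windows and Plin5 with 2, both too low to test. The Pparg windows start 0, 59717 and 60922 bases from the counted start. The 32851 windows are of 27025 genes, so both shares count some genes more than once. Whether the shares differ was not tested. A match is a description of letters and not a binding site. The 3 nearest matches to the repeat are shown first, with matching letters in capitals, and then the single units of Cpt1a and Cpt1c in capitals, since those genes had opposite directions and both hold one. TGACCT is AGGTCA read on the other strand. The Cd36 window belongs to a start 13896 bases from that of the transcript whose counts are given.
Cd36, minus strand of chr5:17835941-17835965: gttctcTGgCCTcTGACtTacttgg
Plin2, minus strand of chr4:86670266-86670290: ctttcagGACCccTGACCTaagtca
Slc25a20, plus strand of chr9:108662136-108662160: gaatgtAGGTgAaAGGTCggcggag
Cpt1a, plus strand of chr19:3323201-3323218: ccttacTGACCTcctccc
Cpt1c, minus strand of chr7:44974986-44975003: ggagggAGGTCAaggctg
Of the 5 members with an unadjusted p under 0.05, Cpt1a, Cpt1c and Plin2 held a single unit, and the letters are not in the windows of Slc25a20 and Eci2.

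The acyl-CoA dehydrogenases, which open each round by chain length, overlapped between genotypes and did not pass the test. Acadvl, for very long chains, had 153, 104 and 166 CPM in C234W and 140, 129 and 99.9 CPM in WT, and FS3B and WT2B were lowest. Acadm, for medium chains, had 156, 126 and 140 CPM in C234W and 148, 106 and 108 CPM in WT, and WT2A and WT2B were the 2 lowest. Its log2 fold change was 0.22 (SE 0.177, adjusted p = 0.457), and 0.40 (adjusted p = 0.0927) without WT1A. Acadl, for long chains, had 15.2, 19.5 and 15.1 CPM in C234W and 12.3, 20.9 and 24.1 CPM in WT, and Acads, for short chains, 2.52, 3.18 and 4.15 CPM in C234W and 4.12, 3.98 and 2.65 CPM in WT. Their log2 fold changes were -0.20 for Acadl (SE 0.266) and -0.13 for Acads (SE 0.328), with adjusted p = 0.667 and 0.832. In each library Acadvl exceeded Acads per length by 27.9 to 52.1 times.

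Hadha and Hadhb encode the alpha and beta subunits of the trifunctional protein, which carries out the later steps on long chains. Hadha had 85.6, 64.8 and 89.6 CPM in C234W and 79.7, 103 and 81.4 CPM in WT, and Hadhb 11.7, 8.02 and 13.4 CPM in C234W and 11.2, 12.5 and 9.71 CPM in WT. Their order across the C234W libraries was the same, with FS3B lowest and FS5A highest, and in WT both were highest in WT2A. The log2 fold changes were -0.14 for Hadha (SE 0.18, adjusted p = 0.664) and -0.02 for Hadhb (SE 0.248, adjusted p = 0.976). Per length, Hadha exceeded Hadhb by 5.58, 6.17 and 5.1 times in C234W and by 5.42, 6.26 and 6.4 times in WT. Of the 50-base windows of the Hadhb transcript, 62.5% also occur in other transcripts, mainly Gm13910, against 0.655% for Hadha. Unique mapping would lose such reads. Whether only unique reads were counted was not checked, and the part of shared reads in the ratio was not tested.

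The 2 subunit genes are transcribed away from each other on chromosome 5, and 272 bases separate their start sites at 30154980 for Hadha and 30155253 for Hadhb. The 250 bases before the Hadha start are shown, read towards Hadha, because both subunit genes share them. Capitals mark the 228 bases that also lie within 250 bases before the Hadhb start. The letters AGGTCA are not in the Hadha window on either strand.
Hadha, minus strand of chr5:30154981-30155230: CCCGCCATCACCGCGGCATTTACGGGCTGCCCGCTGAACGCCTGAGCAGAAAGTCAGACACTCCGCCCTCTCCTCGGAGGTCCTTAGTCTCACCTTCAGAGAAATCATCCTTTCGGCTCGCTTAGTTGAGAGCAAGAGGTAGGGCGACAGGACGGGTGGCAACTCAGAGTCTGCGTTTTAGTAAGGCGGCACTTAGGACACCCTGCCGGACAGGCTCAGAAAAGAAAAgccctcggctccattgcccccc

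The enoyl-CoA isomerases, which move double bonds so that unsaturated chains can be oxidised, had negative log2 fold changes that did not pass. Eci2 had 21.6, 21.8 and 18.3 CPM in C234W and 24.1, 32.1 and 30.8 CPM in WT. All C234W libraries lay below all WT libraries (log2 fold change -0.50, SE 0.181, adjusted p = 0.141). Without WT1A the Eci2 log2 fold change was -0.61 and passed (adjusted p = 0.0392), in a fit where 18.5% of all genes passed and where the WT group is WT2A and WT2B, which may be related. With libraries of the same number summed, the Eci2 log2 fold change was -0.49 (adjusted p = 0.49). With the length trend removed it was -0.36 (adjusted p = 0.299). Eci1 had 19.9, 16.3 and 21.7 CPM in C234W and 39.2, 25.8 and 19.9 CPM in WT. WT1A held the highest value and WT2B overlapped the C234W libraries (log2 fold change -0.55, SE 0.258, adjusted p = 0.215). Without WT1A the Eci1 log2 fold change was -0.24 (adjusted p = 0.423).

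The remaining oxidation enzymes overlapped between genotypes. Hadh, the 3-hydroxyacyl-CoA dehydrogenase for shorter chains, had 15.8, 16.3 and 13.5 CPM in C234W and 17.8, 14.6 and 13.4 CPM in WT (log2 fold change -0.00, SE 0.199, adjusted p = 0.992). Its 95% interval ran from -0.45 to 0.45. Acaa2, the mitochondrial thiolase, had 18.1, 19.7 and 14.3 CPM in C234W and 18.7, 22.9 and 24.3 CPM in WT, and FS3B alone exceeded a WT library (log2 fold change -0.34, SE 0.199, adjusted p = 0.311). Etfdh, which hands the electrons to ubiquinone, had 18.0, 21.2 and 22.7 CPM in C234W and 19.7, 26.8 and 25.3 CPM in WT (log2 fold change -0.21, SE 0.19, adjusted p = 0.507). Ehhadh, the peroxisomal bifunctional enzyme and a classic PPAR alpha target of liver, was low, at 3.23, 5.60 and 3.96 CPM in C234W and 3.19, 2.80 and 3.53 CPM in WT. FS3A lay below WT2B, so the groups overlapped (log2 fold change 0.43, SE 0.313, adjusted p = 0.408). For 10 of the 12 oxidation enzymes the 95% interval lay within 2-fold, and the exceptions were Eci1 and Ehhadh.

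The acyl-CoA thioesterases Acot1 (cytosolic) and Acot2 (mitochondrial), induced by PPAR alpha ligands in rodent liver, were low. Acot1 had 2.74, 2.51 and 2.50 CPM in C234W and 3.19, 2.64 and 4.63 CPM in WT (log2 fold change -0.43, SE 0.322, adjusted p = 0.429). Acot2 had 1.204, 2.18 and 1.83 CPM in C234W and 2.46, 2.80 and 1.40 CPM in WT (log2 fold change -0.36, SE 0.404, adjusted p = 0.609). Both overlapped between genotypes. They are closely related neighbours on chromosome 12, with 23.7% of the 50-base windows of Acot1 present in Acot2 and 24.5% of those of Acot2 present in Acot1, so their levels are uncertain.

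Among PPAR targets that steer fuel use, Pdk4, the kinase that blocks pyruvate entry to the citric acid cycle, was nearly at 0. It had 4, 10 and 6 counts in C234W and 1, 14 and 3 counts in WT, which scaled to a ratio of 0.941 with counting bounds of 0.473 and 1.89 (95%, exact). Angptl4, a secreted inhibitor of lipoprotein lipase, had 5.47, 5.98 and 1.65 CPM in C234W and 5.11, 2.91 and 1.84 CPM in WT. Its highest and its lowest value were both in C234W (log2 fold change 0.41, SE 0.526, adjusted p = 0.653). Ucp2, an inner membrane carrier of the uncoupling protein family, had 23.0, 26.8 and 22.1 CPM in C234W and 30.2, 26.1 and 20.2 CPM in WT. The groups overlapped (log2 fold change -0.09, SE 0.196, adjusted p = 0.811).

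The perilipins coat lipid droplets, and the 3 members had unlike patterns. Plin2, the general droplet coat, had 4.11, 5.88 and 3.17 CPM in C234W and 5.45, 6.997 and 10.7 CPM in WT. WT2B was highest and FS5A lowest, and only FS3B exceeded a WT library, WT1A. The log2 fold change of -0.81 (SE 0.346, adjusted p = 0.187) was the largest of the tested members in size. Its 95% interval ran from -1.59 to -0.03, and the value lay between -1.08 and -0.50 over the 16 settings. Plin4 had 4.71, 4.65 and 7.19 CPM in C234W and 9.63, 1.83 and 1.77 CPM in WT. WT1A was the highest of all 6 libraries, while WT2A and WT2B were the lowest. The Plin4 log2 fold change was 0.32 (SE 0.618, adjusted p = 0.776) with all libraries. Without WT1A it was 1.61 (adjusted p = 0.0221), again with WT2A and WT2B alone as WT and in the fit where 18.5% of all genes passed. With libraries of the same number summed it was 0.06 (adjusted p = 0.98). Plin5, the coat of oxidative tissues, had 2, 4 and 2 counts in C234W and 4, 3 and 0 counts in WT, which scaled to a ratio of 0.968 with counting bounds of 0.307 and 3.14 (95%, exact). Of 8 adipocyte markers, 5 averaged under 1 CPM, Lep at 0 in all libraries among them. The summed level of the 8 was 71.4 to 84.2 CPM in C234W and 54.8 to 92.0 CPM in WT, most of it Adipor2, a receptor that is not particular to adipocytes.

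Among the tested members, WT1A held the highest value of Ppard, Hadh, Eci1, Ucp2 and Plin4 and the lowest of Acadl. Whether it held extremes more often than the other libraries was not tested. The summed pigment epithelium markers were set beside Plin4, Eci1 and Txnip, genes chosen for this after their values were seen. WT1A was the highest of the 6 libraries for Plin4 and Eci1. Txnip, a glucose-responsive inhibitor of glucose uptake, was lowest in WT1A, with 8.10, 9.30 and 11.1 CPM in C234W and 3.79, 44.7 and 32.2 CPM in WT (log2 fold change -1.50, SE 0.714, adjusted p = 0.231). The part of pigment epithelium RNA in these values was not tested.

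**Figure D4:**
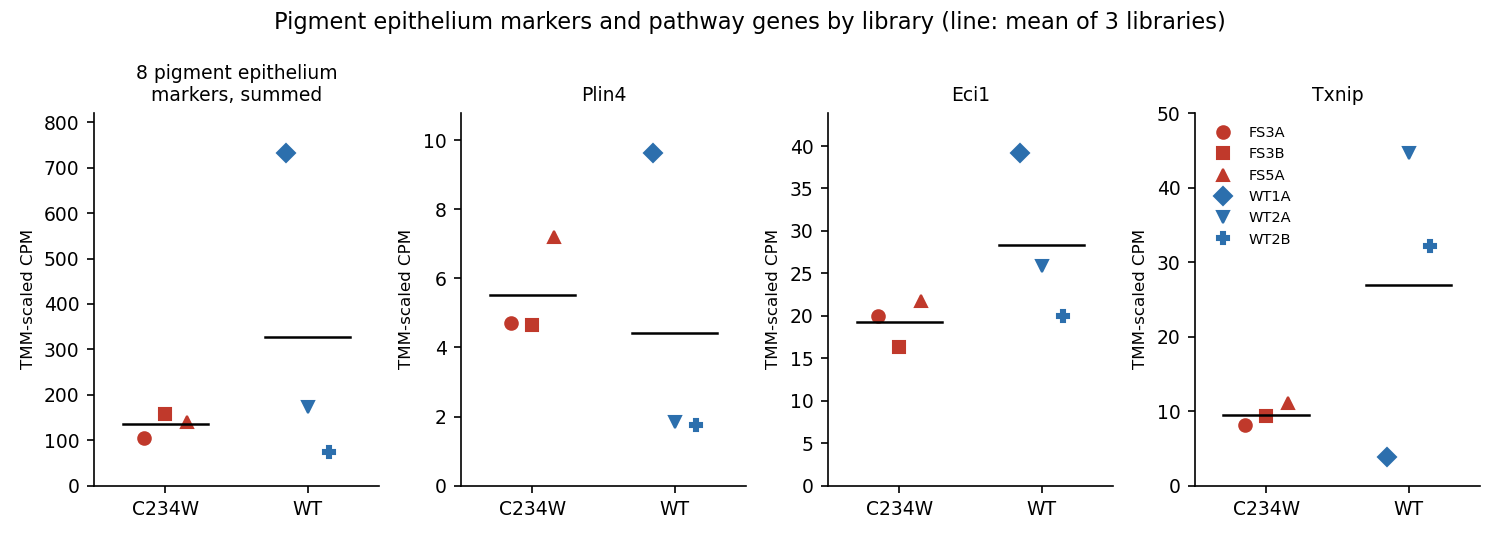
Summed TMM-scaled CPM of 8 pigment epithelium markers and CPM of Plin4, Eci1 and Txnip in each library, with C234W left of WT and the mean of 3 libraries as a line. WT1A, the blue diamond, is the highest library for the summed markers (732 CPM, mostly Ttr and Rgr), Plin4 and Eci1, and the lowest for Txnip.

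Other genes of the pathway, in 7 lists, likewise had 0 genes past the threshold. Of 106 partner genes, 105 were in the table and 93 were tested, with 0 higher and 0 lower by edgeR. DESeq2 called 7 of the 93, where it called 11.9% of all genes. At an unadjusted p under 0.05 edgeR gave 7 higher and 16 lower, 23 of 93. Of all genes 25.4% were under that value, 11.9% as higher and 13.5% as lower. Whether any list differs from all genes was not tested. The median log2 fold change of the partner genes was -0.04. The smallest p was that of Pnpla3, a lipase-like protein of lipid droplets. It had 78.4, 41.5 and 68.4 CPM in C234W and 34.7, 24.3 and 20.2 CPM in WT, with no overlap (log2 fold change 1.25, SE 0.279, adjusted p = 0.0564). It was called by DESeq2 and with no filter on low counts, where 11.9% and 1.84% of all genes were called. It was also called without WT1A, where 18.5% of all genes were. In that fit WT2A and WT2B, which may be related, are the whole WT group. In the droplet and lipolysis list of 13 tested genes, Pnpla3 was the 1 gene at an unadjusted p under 0.05. Fitm2, a droplet-forming protein of the endoplasmic reticulum, came next (log2 fold change 0.65, SE 0.407, adjusted p = 0.343).

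Of the receptor partners and coregulators, 15 were tested and 4 had an unadjusted p under 0.05, where 25.4% of all genes did. Rxra, the RXR partner of the PPARs, had 55.8, 56.1 and 70.1 CPM in C234W and 85.4, 85.6 and 90.1 CPM in WT, with no overlap (log2 fold change -0.52, SE 0.151, adjusted p = 0.0881). Pprc1, a coactivator related to PGC-1 alpha, had 30.1, 18.8 and 17.4 CPM in C234W and 16.6, 6.24 and 7.21 CPM in WT (log2 fold change 1.14, SE 0.389, adjusted p = 0.123). Its lowest C234W value lay just above its highest WT value.

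Among 22 tested further oxidation and acyl-CoA enzymes, 2 were higher and 5 lower at an unadjusted p under 0.05. Of all genes 11.9% were higher and 13.5% lower at that value. Echs1, the short-chain enoyl-CoA hydratase, had 29.8, 37.3 and 31.6 CPM in C234W and 44.4, 51.7 and 54.7 CPM in WT (log2 fold change -0.61, SE 0.165, adjusted p = 0.0765). Etfb, a subunit of the electron transfer flavoprotein that feeds Etfdh, averaged 20.6 ± 1.54 CPM in C234W and 29.0 ± 0.711 CPM in WT (SD, n = 3 each), without overlap (adjusted p = 0.108). Of 6 ketone body enzymes, Bdh1, which interconverts the 2 main ketone bodies, averaged 30.8 ± 3.89 CPM in C234W and 44.7 ± 2.23 CPM in WT, and Bdh2 2.64 ± 0.414 CPM in C234W and 4.88 ± 0.157 CPM in WT (SD, n = 3 each; adjusted p = 0.0915 and 0.103). Neither overlapped between genotypes.

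Fatty acid entry and activation had 14 tested genes, with 1 higher and 2 lower at an unadjusted p under 0.05. For this list and those that follow, the shares of all genes were 11.9% higher and 13.5% lower. Slc27a4, a fatty acid transport protein, averaged 55.3 ± 11.1 CPM in C234W and 37.1 ± 6.75 CPM in WT, and Fabp5, a fatty acid binding protein, 10.8 ± 1.90 CPM in C234W and 18.3 ± 7.11 CPM in WT (SD, n = 3 each; adjusted p = 0.134 and 0.177). WT1A, at 10.1 CPM, overlapped the C234W libraries for Fabp5. Of 17 further PPAR targets 8 could be tested, with 1 higher and 2 lower at an unadjusted p under 0.05, Pex11a and Pdk3 having the smallest p (log2 fold changes -0.40 and -0.40, adjusted p = 0.154 and 0.155). Of 15 citric acid cycle genes, 0 were higher and 3 lower at an unadjusted p under 0.05, led by Mdh2, malate dehydrogenase, at 224 ± 22.9 CPM in C234W and 334 ± 39.7 CPM in WT (SD, n = 3 each; log2 fold change -0.58, SE 0.161, adjusted p = 0.0804). Sdhb, the iron-sulfur subunit of succinate dehydrogenase, followed (log2 fold change -0.39, adjusted p = 0.171). The 3 lower genes, Mdh2, Sdhb and Suclg1, have transcripts of 1271, 1069 and 1381 bases. For all genes up to 1671 bases the median log2 fold change was -0.34. Echs1, Etfb, Bdh2, Fabp5 and Acot13 are also lower and in that range. The other partner genes lower at an unadjusted p under 0.05 are longer. They are Rxra (5255 bases), Bdh1 (3108), Ncoa2 (8242), Acbd3 (3461), Acad11 (3315), Pex11a (2286), Mlycd (2105) and Pdk3 (2041). Of the genes higher at that value, Pnpla3, Pprc1, Slc27a4 and Lpin1 have 4039 bases or more. The others, Acadsb, Slc25a42 and Crot, have 3335, 3162 and 2783 bases. The part of transcript length in the partner values was not tested.

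**Figure D5:**
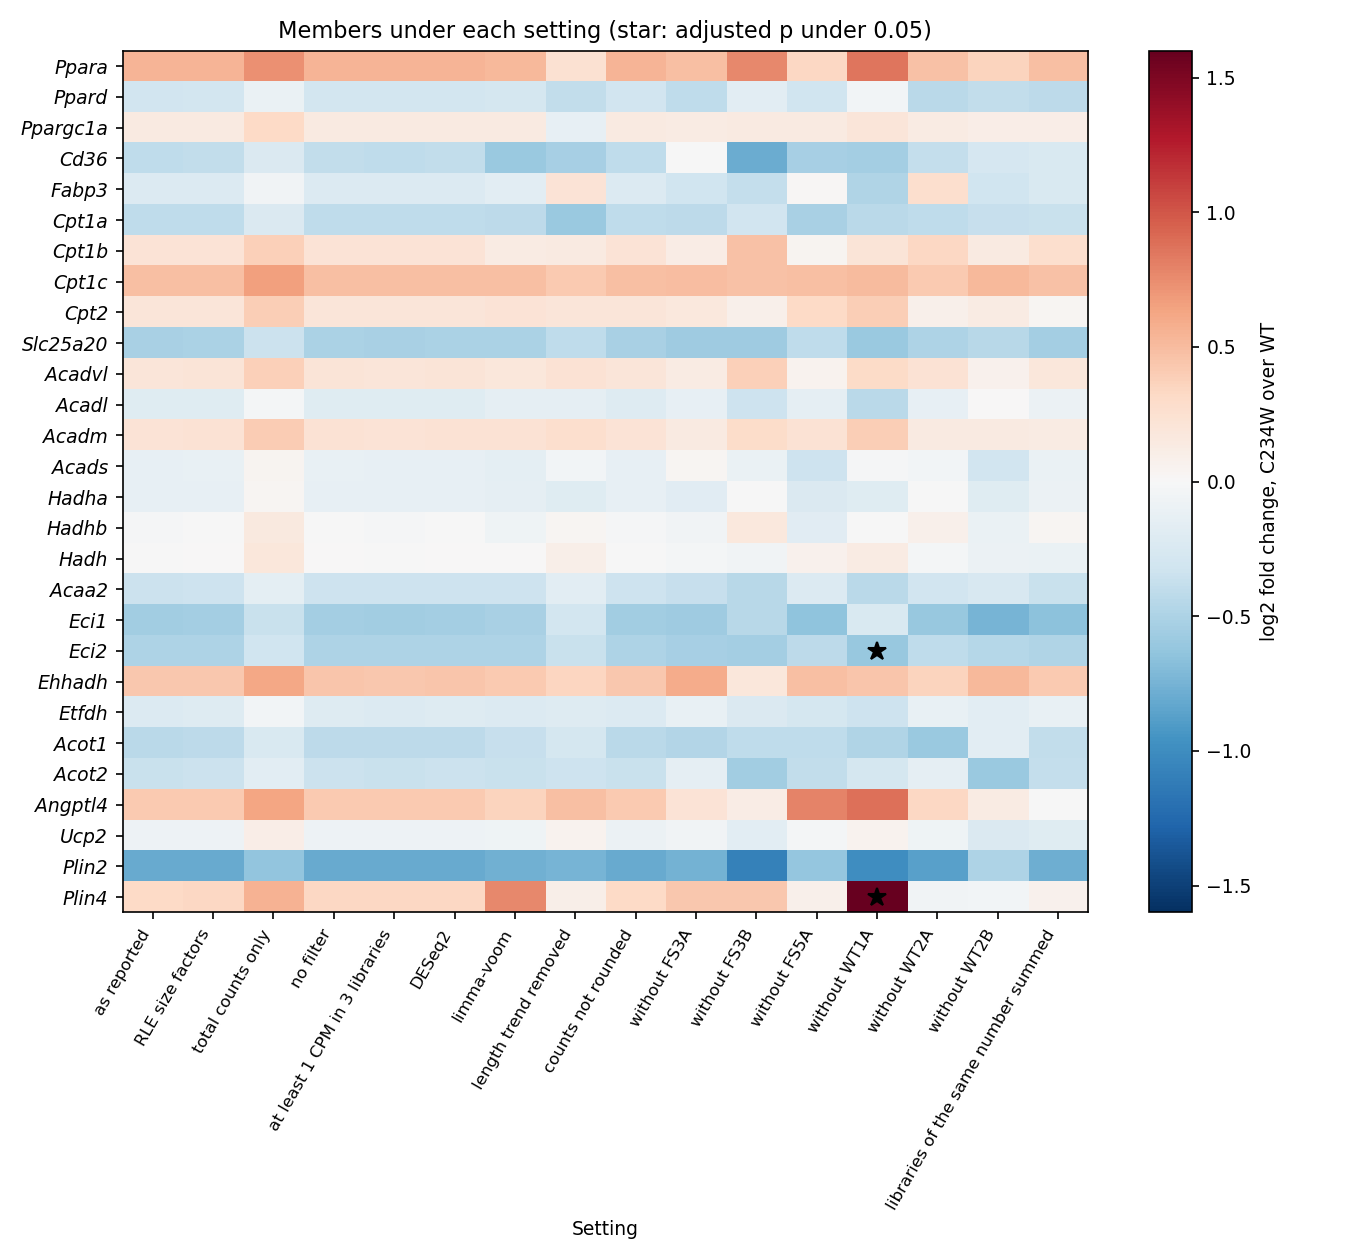
Log2 fold change of each tested member, C234W over WT, as reported and under the 15 other settings, in colour from blue (lower) to red (higher); a star marks an adjusted p under 0.05. Stars occur only without WT1A, for Eci2 at -0.61 and Plin4 at 1.61.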

How the data were processed

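Strand-specific poly-A libraries were aligned by STAR 2.7.8a, which the submitters' processing notes name, to mouse build mm10. HOMER then counted exonic tags on the minus strand, with a single isoform for each locus, per the file headers. What the authors deposited are estimated counts, not normalized, of which 28.3 to 32.1% per library were not whole. They were rounded here. Of the columns, 0 were left out.

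Genes were kept by filterByExpr and scaled by TMM. The quasi-likelihood test of edgeR 4.0.16 (R 4.3.3) set C234W against WT with no covariate, adjusted by Benjamini-Hochberg over 14685 genes, with a threshold of 0.05. RPKM used the deposited transcript length. DESeq2 1.42.0 and limma 3.58.1 (voom) were alternatives, beside other scalings, filters, a length offset (loess span 0.3), unrounded counts, each library left out, and libraries of the same name number summed. Intervals are 95%. The smallest chi-square between libraries was 10.4 per degree of freedom (WT2A and WT2B), so none was treated as a duplicate. The members and lists were chosen with earlier results of these data known. All members are named, with at least the 2 genes of smallest p in each partner list. Txnip and the ratios were chosen after their values were seen. The scripts were tested on simulated data.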

Additional observations from a re-analysis of the deposited data

How the results depend on the processing

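The count of called members was 0 under 14 of 15 other settings and 2 (Eci2 and Plin4) without WT1A, where WT2A and WT2B, which may be related, are the whole WT group. No paired analysis was possible because the columns carry no replicate number of the labels. Leaving out each library gave 0 to 2 members, 0 to 12 partner genes, 0 to 2775 genes in all and a member median from -0.17 to -0.0323. Of partner genes, 1 passed with no filter and 7 in DESeq2. Over all genes, where 215 passed, 0 passed by RLE, by total counts, with the length trend removed or with libraries of the same number summed (3753, 4349, 3014 and 1793 at an unadjusted p under 0.05), 353 with no filter and 1754 in DESeq2, so the background depends on the setting. The count was 0 without FS3A, FS3B, WT2A or WT2B, 4 without FS5A and 2775 without WT1A.

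Total counts shifted the median of all genes to 0.21 and that of the members to 0.0402. Under it the log2 fold changes turned to 0.0488 for Acads, 0.0317 for Hadha, 0.155 for Hadhb, 0.19 for Hadh and 0.10 for Ucp2. Hadh was 0.0021 by RLE, 0.0017 with no filter, 0.0025 in DESeq2 and 0.0043 in limma-voom. With the length trend removed, values turned to -0.13 for Ppargc1a, 0.22 for Fabp3, 0.0284 for Hadhb, 0.0922 for Hadh and 0.0608 for Ucp2, and with libraries summed to 0.0269 for Hadhb and -0.0012 for Angptl4. With a library left out, the sign changed for Fabp3 (-0.48 to 0.26), Acadl (-0.43 to 0.0022), Acads (-0.33 to 0.0279), Hadhb (-0.18 to 0.17), Hadh (-0.0884 to 0.125), Ucp2 (-0.228 to 0.0561) and Plin4 (-0.0518 to 1.61). With all libraries none of these members passed, and the cause was not tested. Pparg, Pdk4 and Plin5 had too few counts to test.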
